A study of Canis lupus familiaris with 6 samples.

Results

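The genes described here encode solute carriers for amino acids, sugars, vitamins and inorganic ions. Members were all array probes whose gene symbol placed them in 1 of 15 SLC families (SLC1 to SLC9, SLC12, SLC16, SLC22, SLC30, SLC38 and SLC39), apart from SLC2A1, SLC2A3, SLC16A1 and SLC16A3. This gave 132 genes with 176 probes, out of 13685 gene symbols and 43603 probes on the array. The symbols SLC2A4RG, SLC7A6OS and SLC9A3R1 matched the pattern although these genes do not encode carriers themselves. SLC2A4RG is named as a regulator of SLC2A4, SLC7A6OS lies opposite SLC7A6, and SLC9A3R1 is a scaffold that binds sodium/proton exchangers. All 3 were kept in every count.

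Solute carriers are membrane proteins that move ions, sugars, amino acids and metals along or against their gradients, many of them by coupling the solute to sodium, protons or a counter-ion. In tumor cells the amino acid carriers supply glutamine, leucine and cystine for growth and redox balance, and the bicarbonate, proton and chloride carriers hold cell pH and volume. Zinc is brought into the cytoplasm by the SLC39 carriers and removed from it by the SLC30 carriers. Myeloid-derived suppressor cells (MDSCs), the cells placed next to the tumor cells here, are immature myeloid cells that restrain T cells.

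Gene expression was measured on 6 canine oligonucleotide arrays with a Cy3 and a Cy5 channel. On each array RNA of a mammary tumor line grown with MDSCs was hybridised against RNA of the same line grown alone. The lines were P114, from an anaplastic cancer, CMT-U27, from a simple carcinoma, and CMT-U309, from a spindle cell mammary tumor, and each is a single line standing for its tumor type. The MDSCs were cells positive for Gr1, CD11b and CD33 that had been sorted from blood of dogs without disease, and were held in inserts above the tumor cells, for at least 72 h by the sample descriptions and for a shorter time by the methods.

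Each line gave 1 RNA from co-culture and 1 from monoculture, and this pair was hybridised on 2 arrays with the dyes exchanged. The 2 arrays of a line are therefore technical repeats, and every p-value below is taken over the 3 lines, which also differ in tumor type. The arrays of each line lay on a slide of their own, so line and slide cannot be told apart in any comparison between lines. Pairs of values are given in the order of the dye of the co-culture RNA, Cy5 first and Cy3 second.

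A probe counts as well above background where the scanner software marks it so, and each gene has 12 channels, 6 for each condition. Between 53.0% and 81.0% of all probes passed in a channel. Across probes the log2 ratios of the 2 arrays of a line correlated at -0.39 for P114, 0.26 for CMT-U27 and -0.09 for CMT-U309. Arrays with co-culture RNA in Cy3 correlated at 0.47, 0.51 and 0.61 between lines, and arrays with it in Cy5 at -0.22, 0.03 and 0.40. The epithelial marker EPCAM stood at a monoculture log2 level of 9.67, 15.9 and 7.45 in the lines in the order above, and KRT19 at 10.3, 16.02 and 4.67. The collagen COL1A1, a mesenchymal marker, stood at 14.9, 3.86 and 17.1. CMT-U27 thus had the highest levels of these epithelial markers and CMT-U309 the highest collagen. P114 lay between them for each of these genes and for the other epithelial and mesenchymal markers read, apart from CLDN3. For that epithelial marker P114 was the lowest line, with 7.63 against 10.5 in CMT-U27 and 8.23 in CMT-U309. Of 12 myeloid markers found on the array, CD68, ITGB2 and S100A8 passed in all 12 channels and LYZ, SPI1 and ITGAM in 0. The other markers passed in some channels. The summed level of the list ranged from 1967 to 9259 in monoculture and from 1950.5 to 15633 in co-culture (linear normalised intensity).

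Of the 132 solute carrier genes, 58 (43.9%) were well above background in all 12 channels, against 57.8% of all genes. A further 59 passed in 1 to 11 channels and 15 (11.4%) in none, against 8.76% of all genes. The genes that passed in no channel were SLC16A7, SLC8A1, SLC30A8, SLC7A2, SLC16A12, SLC2A5, SLC2A2, SLC6A4, SLC2A12, SLC22A2, SLC6A2, SLC6A14, SLC38A4, SLC6A15 and SLC7A8. They include the liver and islet glucose carrier SLC2A2, the islet zinc carrier SLC30A8 and the serotonin and noradrenaline carriers SLC6A4 and SLC6A2. The zinc uptake family SLC39 was the most widely detected large family, with 11 of 14 genes in all 12 channels, while the organic ion family SLC22 had 3 of 14.

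The lines were first compared in monoculture, where the level is the log2 intensity after normalisation within and between arrays and is set only against the same probe in another line. A gene was called apart where the mean levels of a pair of lines differed by over 2-fold, both channels of the higher line lay above both of the lower, and both were well above background in the higher line. With 1 RNA per line this is a description without a test. By that rule 50 of 132 genes (37.9%) were apart in some pair of lines, against a background of 38.3% of all genes and 40.1% of the genes well above background in all 12 channels. CMT-U27 was above P114 for 18 genes (background 13.8%) and below it for 15 (background 10.0%), CMT-U309 was above P114 for 11 (background 9.19%) and below it for 6 (background 6.53%), and CMT-U309 was above CMT-U27 for 23 (background 13.1%) and below it for 17 (background 14.1%). In either direction the background was 23.8%, 15.7% and 27.2% for the 3 pairs. The carriers as a whole were thus apart about as often as other genes. The count depended on background correction: with normexp background correction at an offset of 50, which compresses dim signals, the 3 pairs held 13, 7 and 14 genes in place of 33, 17 and 40.

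Among amino acid carriers 17 of 42 genes (40.5%) were apart, against 38.3% of all genes. Among the bicarbonate, calcium, proton and chloride carriers 16 of 25 (64%) were apart. Of the sugar and sodium-coupled carriers 5 of 19 (26.3%) were apart. Of the zinc carriers it was 6 of 23 (26.1%), and of the monocarboxylate and organic ion carriers 6 of 23 (26.1%). By family the shares ran from 6 of 7 in SLC9 and 4 of 5 in SLC1 to 3 of 14 in SLC39 and 1 of 9 in SLC16. The SLC9 count includes the scaffold SLC9A3R1, the families are small, and no share was tested. The genes named in the next paragraphs are those of widest range in their family and a list of carriers chosen by role with earlier results known. SLC12A4 was instead taken from the genes higher in co-culture on all 6 arrays, and SLC1A2 was added after its values were seen.

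The gene of widest range was SLC1A1, which encodes a carrier of glutamate and cysteine. Its probe is shown because the separation between lines rests on this single sequence, which matches canFam2 chr1:96044512-96044571 on the plus strand (no letters are capitalised in the probes below, since no part of them is singled out).
SLC1A1 probe: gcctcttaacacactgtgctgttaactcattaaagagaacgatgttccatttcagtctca
Its monoculture log2 level was 5.59 and 6.10 in P114, 13.76 and 13.91 in CMT-U27, and 7.08 and 6.98 in CMT-U309. CMT-U27 was 255-fold above P114, where 1 of 2 channels was well above background, and 112-fold above CMT-U309. The difference from P114 was 7.99 on the log2 scale and 5.99 with normexp background correction.

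The other glutamate carriers were distributed differently. SLC1A3, a glutamate and aspartate carrier best known from astrocytes, stood at 3.09 and 3.63 in P114, where neither channel was well above background, at 9.52 and 9.36 in CMT-U27 and at 10.62 and 10.38 in CMT-U309. It was at least 26.0-fold higher in CMT-U27 and at least 54.1-fold higher in CMT-U309 than in P114, the bound being set by the dimmest signals that passed in P114. SLC1A2, the main glial glutamate carrier, was 14.6-fold higher in CMT-U27 than in P114, where 1 of 2 channels was well above background. SLC1A5, which exchanges glutamine for other neutral amino acids, went the other way, with 11.85 and 11.54 in P114, 9.20 and 9.29 in CMT-U27, and 12.22 and 12.49 in CMT-U309. CMT-U27, the line of highest SLC1A1, thus had the lowest SLC1A5, 5.45-fold below P114 and 8.63-fold below CMT-U309. A second, dimmer probe had the same order over a smaller range, with mean levels of 6.34, 5.03 and 6.79 in the 3 lines.

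Carriers of osmolytes also separated the lines. SLC6A12, which carries betaine and GABA, was at 4.96 and 5.02 in P114, 11.76 and 11.65 in CMT-U27 and 6.78 and 6.84 in CMT-U309, which put CMT-U27 105-fold above P114 (1 of 2 channels well above background there) and 29.6-fold above CMT-U309. The taurine carrier SLC6A6 ran in the opposite order, at 11.36 and 11.52 in P114, 6.57 and 6.84 in CMT-U27 and 9.71 and 9.83 in CMT-U309, so that P114 was 26.6-fold above CMT-U27. SLC5A3, which takes up myo-inositol with sodium, was likewise highest in P114, 2.60-fold above CMT-U27 and 5.43-fold above CMT-U309.

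Among the SLC7 family SLC7A4, a member of the cationic group without a settled substrate, was detected in both channels only in CMT-U27, at 7.69 and 7.87. It was at least 8.22-fold higher there than in P114, where neither channel passed. The cystine/glutamate exchanger SLC7A11 was highest in CMT-U309, at 7.17 and 7.22, which was 6.08-fold above CMT-U27 and 3.87-fold above P114, where 1 of 2 channels was well above background. The leucine exchanger SLC7A5 and its heavy chain SLC3A2 were lowest in CMT-U27, 2.32-fold and 2.50-fold below P114, but the 2 P114 channels of SLC3A2, at 8.78 and 7.88, lay apart. For SLC3A2 the log2 difference of 1.32 fell to 0.67 with normexp background correction and to 0.44 in the co-culture channels. SLC7A1, the main carrier of arginine and lysine, stood between 11.92 and 12.87 in the 6 monoculture channels and was not apart in any pair.

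The glutamine carrier SLC38A2 was at 14.06 and 14.53 in P114, 12.95 and 12.77 in CMT-U27, and 15.80 and 15.69 in CMT-U309. All 3 pairs of lines were apart, by 2.70-fold to 7.40-fold, and no channels of different lines overlapped. A second probe kept this order at mean levels of 10.84 for P114, 8.61 for CMT-U27 and 11.55 for CMT-U309, where CMT-U309 and P114 were less than 2-fold apart. Its close relative SLC38A1 followed the same order over a smaller range, from 10.90 and 11.09 in CMT-U27 to 12.48 and 12.12 in CMT-U309, a 2.47-fold difference.

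SLC2A9, which carries urate and fructose, gave the widest range of the sugar carriers. It was at 12.73 and 12.51 in P114, 11.96 and 11.88 in CMT-U27, and 6.53 and 6.32 in CMT-U309, so CMT-U309 lay 73.1-fold below P114 and 45.1-fold below CMT-U27 while the first 2 lines were less than 2-fold apart. The intracellular glucose carrier SLC2A8 ranged only from 10.82 to 11.47 over the 6 channels. SLC2A10 was at least 5.28-fold higher in CMT-U309 than in CMT-U27, where it was not well above background. The insulin-responsive glucose carrier SLC2A4 passed in 1 of its 12 channels, a monoculture channel of P114, and SLC2A12 in none.

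For pH and volume control, SLC4A4, a sodium bicarbonate cotransporter, was at 8.51 and 8.09 in CMT-U309, 17.2-fold above CMT-U27 and 8.87-fold above P114, where 1 of 2 channels was well above background. Its other probes of detectable signal were dimmer, with mean levels of 4.12, 4.396 and 5.86 and of 4.56, 4.58 and 6.27 in P114, CMT-U27 and CMT-U309, so CMT-U309 was again highest by a smaller margin. A second cotransporter of this kind, SLC4A7, was at 7.88 and 7.65 in P114, 5.70 and 5.78 in CMT-U27 and 8.03 and 8.29 in CMT-U309. The potassium-chloride cotransporters SLC12A4 and SLC12A7 ran in opposite directions. SLC12A4 was 7.92-fold higher in P114 and 8.57-fold higher in CMT-U309 than in CMT-U27, while SLC12A7 was highest in CMT-U27, 3.403-fold above CMT-U309 and at least 5.43-fold above P114. A second SLC12A4 probe that passed in every channel spanned a smaller range, with mean levels of 7.40 for P114, 6.503 for CMT-U27 and 7.94 for CMT-U309. The scaffold SLC9A3R1 was highest in CMT-U27, at 7.87 and 7.78 against 5.11 and 4.81 in CMT-U309. That log2 difference of 2.865 was 0.84 with normexp background correction.

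Of the zinc carriers SLC39A8, which takes up zinc and manganese, had the widest range, at 8.75 and 8.48 in CMT-U27 against 4.51 and 4.81 in CMT-U309 and 3.73 and 3.15 in P114. It was 15.5-fold above CMT-U309 and at least 14.7-fold above P114, where no channel was well above background. For SLC39A14, which also takes up zinc and manganese, CMT-U27 was instead the lowest line and lay 4.94-fold below P114 and 5.82-fold below CMT-U309. The zinc exporter SLC30A1 stood between 10.03 and 11.29 and was not apart in any pair. SLC30A4 was at 5.36 and 5.30 in CMT-U27 against 4.24 and 2.98 in P114, where neither channel passed, a difference of at least 1.502-fold. In the last group, SLC22A15 was 6.86-fold higher in CMT-U27 than in CMT-U309 and at least 7.03-fold higher than in P114. SLC16A11 was 2.28-fold higher in CMT-U309 than in CMT-U27, a log2 difference of 1.19 that was 0.90 with normexp background correction. The bounds against P114 hold for the processed signals only. With normexp background correction the log2 difference of CMT-U27 from P114 was 0.80 for SLC22A15, 0.83 for SLC12A7 and 1.28 for SLC7A4. It was 1.63 for SLC39A8 and 0.29 for SLC30A4, and each of these values is smaller than the bound given for the gene.

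**Figure D1:**
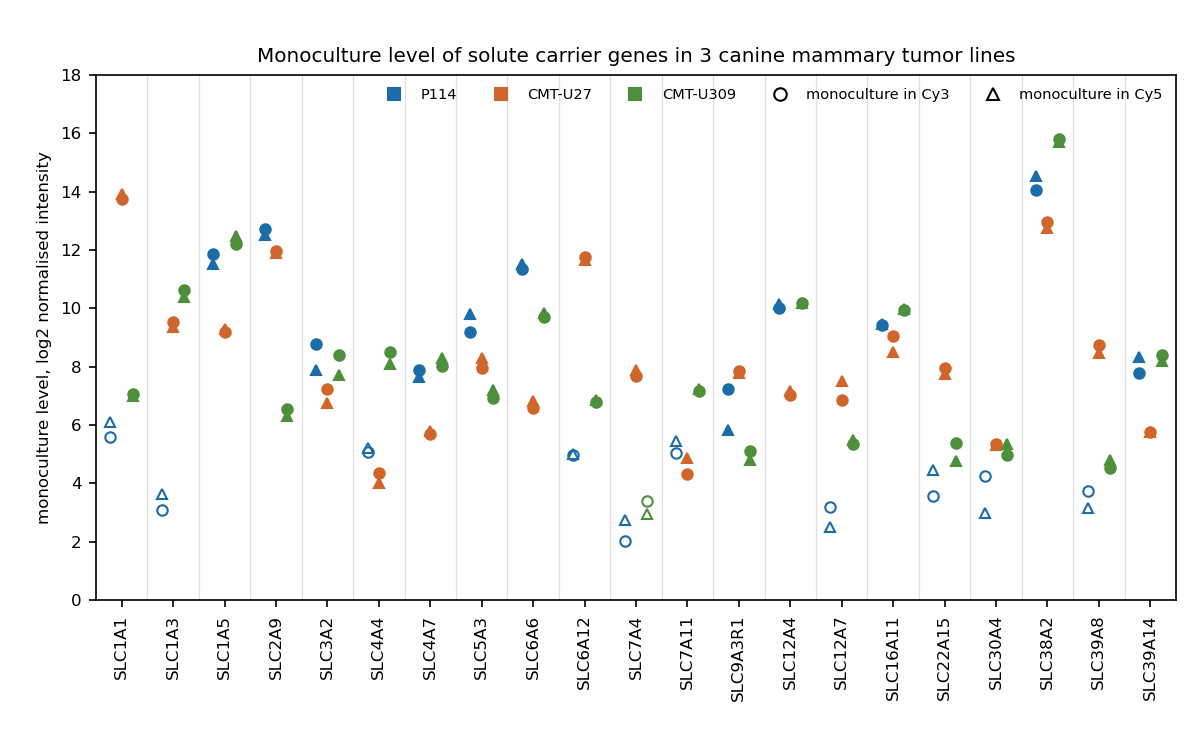
Monoculture log2 normalised intensity (vertical axis) of 21 solute carrier genes in P114, CMT-U27 and CMT-U309, with 1 point for each of the 2 arrays of a line; circles are monoculture RNA in Cy3 and triangles in Cy5. Open symbols mark a line in which fewer than 2 monoculture channels were well above background. SLC1A1, SLC6A12 and SLC39A8 are highest in CMT-U27, SLC6A6 and SLC5A3 in P114, and SLC38A2 and SLC4A4 in CMT-U309, and levels of different genes are not to be compared.

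The arrays compared tumor cells grown with MDSCs with the same cells grown alone. The difference was read as the log2 ratio of the co-culture to the monoculture signal, averaged over the 2 arrays of a line and tested over the 3 lines with limma at the thresholds of the methods, an unadjusted p under 0.05 and a change over 2-fold. Of the 123 solute carrier genes that passed the intensity filter, 0 were higher and 0 were lower past these thresholds, against a background of 0.653% higher and 0.175% lower among all genes. The smallest adjusted p of a carrier was 0.499 (limma, Benjamini-Hochberg over all tested probes) and the smallest on the whole array was 0.233, so no gene of any kind passed at 0.05. An unadjusted p under 0.05 was met by 17 carriers (background 9.45%), 11 with a ratio above 1 and 6 below (background 5.6% and 3.85%). Of the 58 carriers well above background in all 12 channels, 9 met it (background 9.49%). The methods' t-test also called 0 carriers in each direction. The brightest probe stood for each gene. The 9 genes that failed the filter were SLC22A3, SLC6A4, SLC2A12, SLC22A2, SLC6A2, SLC38A4, SLC12A3, SLC6A15 and SLC7A8. In bulk RNA of this kind a change in the share of cells and a change in RNA per cell cannot be told apart.

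The median log2 ratio of the 123 carriers was -0.03, against 0.00 for all genes, and 53 of the 123 lay above 0. By role the medians were -0.09 for 37 amino acid carriers, 0.03 for 18 sugar and sodium-coupled carriers, -0.07 for 24 bicarbonate, calcium, proton and chloride carriers, 0.03 for 23 zinc carriers and -0.03 for 21 monocarboxylate and organic ion carriers. The 58 genes measured in all 12 channels kept within -0.49 and 0.80, and their median was 0.01. None of the 123 mean ratios reached 2-fold.

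**Figure D2:**
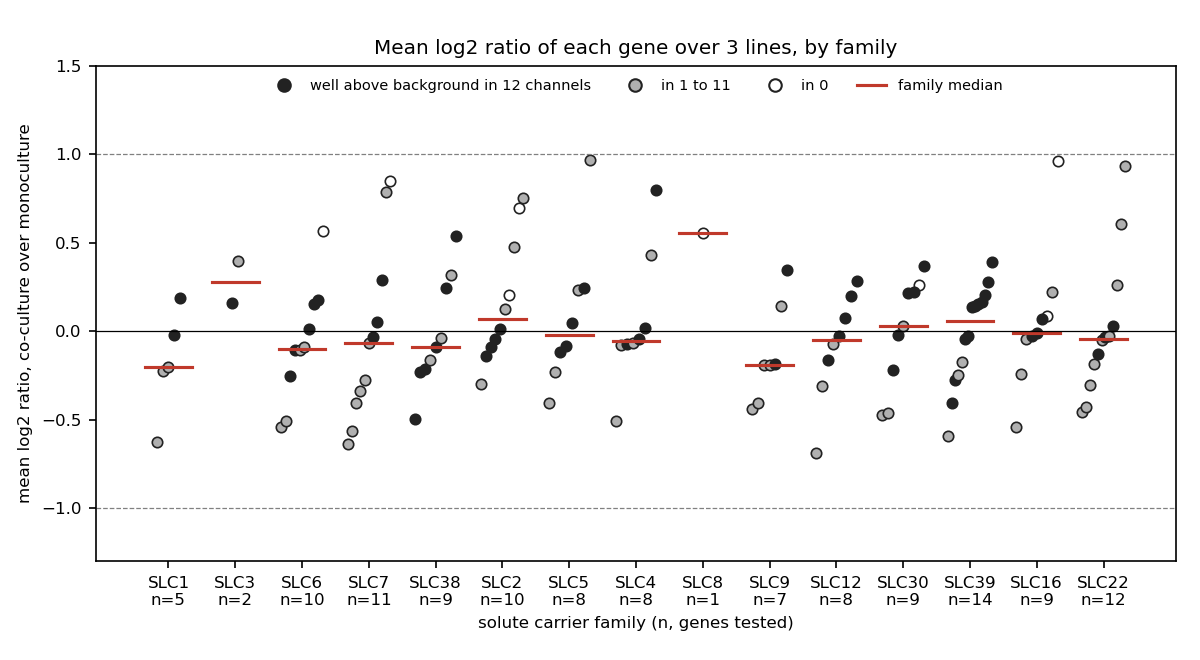
Log2 co-culture to monoculture ratio, mean of 3 lines (vertical axis) for each tested solute carrier gene, by family on the horizontal axis. Black points passed the background flag in 12 channels, grey in 1 to 11, open in 0; red lines are family medians and dashed lines mark 2-fold. All points lie inside the dashed lines, and the highest black point is SLC4A2 at 0.80.

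The carriers with an unadjusted p under 0.05 are described next, and apart from SLC1A3, SLC7A1, SLC7A11, SLC38A1 and SLC38A2 they were singled out after their values were seen. Each has an adjusted p of 0.499 (limma, Benjamini-Hochberg over all tested probes), and values are means of 3 lines with their SE from that fit. None of them passed the thresholds of the methods.

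SLC4A2, an exchanger of chloride for bicarbonate, had the largest mean ratio of the genes measured in all 12 channels. Its single probe, shown because the result rests on it, matches canFam2 chr16:18073956-18074015 on the plus strand.
SLC4A2 probe: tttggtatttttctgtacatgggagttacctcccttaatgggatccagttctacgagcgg
The log2 ratios were -0.43 and 0.55 in P114, 1.35 and 1.35 in CMT-U27, and 0.87 and 1.11 in CMT-U309. All 4 arrays of CMT-U27 and CMT-U309 lay above both arrays of P114, whose dye-swapped arrays disagreed in sign. The mean was 0.80 (SE 0.22), a 1.74-fold ratio. Its monoculture level was 9.03 and 7.94 in P114 against 7.24 to 7.66 in the other lines, and the co-culture levels were between 8.13 and 9.01 in all 3 lines. Without P114 the mean was 1.17 (SE 0.14) with an adjusted p of 0.000584 (limma, Benjamini-Hochberg over all tested probes). That fit holds only 2 lines and leaves out the one that differed, and in it 16.6% of all genes had an adjusted p under 0.05. In CMT-U27 the summed level of the myeloid markers was 8855 and 9259 in monoculture and 15633 and 15313 in co-culture, and its part in the ratio was not tested. That sum was mostly S100A8, which stood at a log2 level of 12.8 in CMT-U27 monoculture and had a log2 ratio of 0.85 there. TYROBP was at -1.31 and CYBB at -0.29. All other markers of the list were above 0 in CMT-U27, from ITGB2 at 0.10 to LYZ at 1.23, and LYZ passed in 0 channels.

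SLC1A3 had ratios of -0.44 and -1.11 in P114, -0.79 and -0.50 in CMT-U27, and -0.56 and -0.37 in CMT-U309. It was below 0 on all 6 arrays with little difference between lines, but the P114 channels were not well above background in either condition. The mean was -0.63 (SE 0.15), a ratio of 0.648. In the lines where the gene was detected, levels went from 9.52 and 9.36 to 8.74 and 8.86 in CMT-U27 and from 10.62 and 10.38 to 10.07 and 9.93 in CMT-U309, and the co-culture channels lay below the monoculture channels in each.

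The glutamine carrier SLC38A2 had ratios of 0.08 and -0.16 in P114, -0.68 and -0.31 in CMT-U27 and -1.38 and -0.52 in CMT-U309, with a mean of -0.49 (SE 0.16). All 4 arrays of CMT-U27 and CMT-U309 were below both arrays of P114. A second probe of the gene, also well above background in all 12 channels, did not give this pattern, so both are shown. The brightest matches canFam2 chr27:11081149-11081208 and the second has its match spread over chr27:11077477-11078315, both on the plus strand.
SLC38A2 brightest probe: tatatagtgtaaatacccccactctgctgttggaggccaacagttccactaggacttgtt
SLC38A2 second probe: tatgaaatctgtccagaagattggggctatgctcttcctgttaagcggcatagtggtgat
The second probe gave -0.22 and -0.12 in P114, 0.38 and 0.12 in CMT-U27 and 0.51 and 0.13 in CMT-U309, with a mean of 0.13 (SE 0.13). The ratios of the probes had opposite signs on all arrays of CMT-U27 and CMT-U309, and a direction for the gene is not given.

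SLC38A1 had ratios of 0.21 and 0.21 in P114, 0.21 and 0.11 in CMT-U27 and 0.30 and 0.43 in CMT-U309, with a mean of 0.25 (SE 0.11). It was among 3 carriers measured in all 12 channels that were higher on all 6 arrays, with SLC30A9 and SLC12A4, and none was lower on all 6 (background 3.6% and 2.14%, or 5.74% in either direction). Its other probes gave means of 0.19 and 0.14, without the same sign on every array. SLC30A9, a zinc carrier, had ratios between 0.11 and 0.36 (mean 0.22, SE 0.12), and SLC12A4 between 0.03 and 0.47 (mean 0.20, SE 0.13).

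Other amino acid carriers showed differences between the dyes that were as large as their means. SLC7A11 had ratios of 0.35 and -0.46 in P114, -0.60 and -2.29 in CMT-U27 and -0.24 and -0.61 in CMT-U309, with a mean of -0.64 (SE 0.28). Neither co-culture channel of CMT-U27 was well above background, so the lowest value there is of a dim spot. The glycine carrier SLC6A9 was at 0.18, 0.01 and 0.24 with co-culture RNA in Cy5 and at -0.48, -1.98 and -1.21 with it in Cy3 (lines in the order above), and SLC7A14 at 0.41, -0.57 and -0.37 against 1.19, 1.81 and 2.24. SLC7A1 was at 0.47, 0.60 and 0.64 in Cy5 and -0.07, 0.17 and -0.07 in Cy3, with a mean of 0.29 (SE 0.11).

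SLC38A10, an orphan member of the glutamine carrier family, had ratios of 1.06 and 1.49 in P114, 0.54 and -0.23 in CMT-U27, and 0.09 and 0.29 in CMT-U309. The P114 arrays were both over 2-fold and above all arrays of the other lines. The mean was 0.54 (SE 0.20). In P114 its level was 8.95 and 8.62 in monoculture and 9.97 and 10.103 in co-culture. The probe, shown because this was the only carrier past 2-fold on both arrays of that line, matches canFam2 chr9:3838589-3838648 on the plus strand.
SLC38A10 probe: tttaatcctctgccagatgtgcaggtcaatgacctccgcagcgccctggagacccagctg

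A change of over 2-fold in the same direction on both arrays of a line, with both channels of the brighter condition well above background, was met by 1 carrier in each line. These were SLC38A10 in P114 (background 0.0365% higher), SLC4A2 in CMT-U27 (background 0.541% higher), and SLC39A8 in CMT-U309 (background 0.0731% lower). No carrier met it in the other direction in any line (background 0.205% lower in P114, 0.351% lower in CMT-U27 and 0.285% higher in CMT-U309). This comparison was added after the values were seen, and with 1 RNA pair per line it has no test. SLC39A8 in CMT-U309 had ratios of -1.34 and -1.69, and since no co-culture channel there was well above background the difference was at least 1.41-fold.

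Among zinc carriers the means with p under 0.05 were 0.39 for SLC39A4 (SE 0.16), 0.37 for SLC30A5 (SE 0.14), 0.28 for SLC39A5 (SE 0.12) and -0.41 for SLC39A10 (SE 0.17). All 4 genes were measured in all 12 channels. SLC39A4, which takes up dietary zinc in the intestine, was at 0.11 and -0.17 in P114, 0.91 and 0.75 in CMT-U27 and 0.35 and 0.39 in CMT-U309, and its second probe gave a mean of 0.35. SLC39A10 was at -0.16 and 0.50 in P114, -0.84 and -0.32 in CMT-U27 and -1.27 and -0.33 in CMT-U309. In both genes the arrays of P114 did not overlap those of the other lines. SLC39A5 is uncertain, since its second probe gave -0.78 (SE 0.30) and was well above background in 7 channels.

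The remaining genes with p under 0.05 were dim. SLC12A8 was below 0 on all 6 arrays, from -0.26 to -1.59, with a mean of -0.69 (SE 0.21), and was well above background in 8 channels. Its second probe, which passed in 9 channels, gave -0.17 (SE 0.23) with 3 of 6 arrays above 0. SLC22A4, a carrier of ergothioneine, was at -0.12 and 1.11, 0.57 and 2.41, and -0.21 and 1.85 in the 3 lines, with a mean of 0.93 (SE 0.27), and passed in 5 channels. In each line the array with co-culture RNA in Cy3 gave the higher value. SLC16A7, a lactate and pyruvate carrier (mean 0.96, SE 0.38), and SLC5A11, a myo-inositol carrier (mean 0.97, SE 0.35), passed in 0 and 1 channels.

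**Figure D3:**
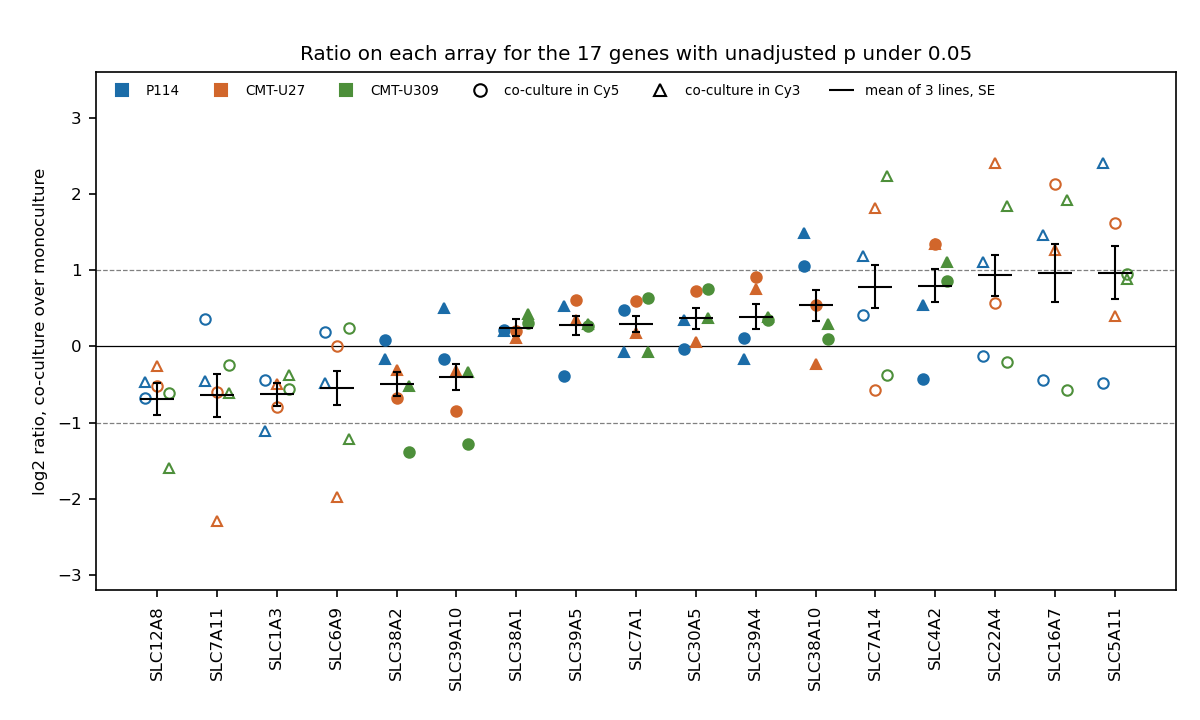
Log2 co-culture to monoculture ratio (vertical axis) on each array for the 17 solute carrier genes with an unadjusted p under 0.05; colour is the line, circles have co-culture RNA in Cy5 and triangles in Cy3, and black bars are the mean of 3 lines with its SE. Filled symbols belong to genes well above background in all 12 channels, and dashed lines mark 2-fold. Both CMT-U27 points of SLC4A2 lie at 1.35, and the dye-swapped points of SLC7A14, SLC22A4 and SLC16A7, with open symbols, lie far apart.

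One probe passed the thresholds of the methods, a probe of SLC22A24, which belongs to the organic anion carriers (background over all probes 1.03% higher and 0.198% lower). It is shown with a second probe because the sequences are identical and match canFam2 chr18:56532131-56532190 on the minus strand.
SLC22A24 probe called: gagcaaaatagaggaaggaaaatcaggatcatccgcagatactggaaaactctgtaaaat
SLC22A24 probe not called: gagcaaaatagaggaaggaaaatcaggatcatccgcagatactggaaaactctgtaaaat
The first gave ratios of -1.18 and 1.98 in P114, 2.10 and 1.32 in CMT-U27 and 1.96 and 2.41 in CMT-U309, with a mean of 1.43 (SE 0.42). The second gave -1.05 and 1.097, -1.37 and 2.35, and -0.65 and 3.22, with a mean of 0.60 (SE 0.39). The called probe was well above background in 0 channels and its twin in 1. The brightest probe of the gene, which matches elsewhere in it and passed in 11 channels, gave a mean of -0.19 (SE 0.22), and the fourth gave -0.73 (SE 0.32). Over the 32 carriers with several tested probes, SLC22A24 and SLC39A5 were among those with probes whose means were over 1 apart on the log2 scale.

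The carriers most often discussed in tumor metabolism did not pass in either direction. SLC1A5 had ratios of -0.52 and -0.29 in P114, 0.41 and 0.42 in CMT-U27 and 0.80 and 0.33 in CMT-U309. The mean was 0.19 (SE 0.17), and at this probe P114 lay on one side of 0 and the other lines on the other. Its second, dimmer probe gave -0.31 and -0.17 in P114, 0.54 and -0.66 in CMT-U27 and 0.40 and 0.11 in CMT-U309. That probe was well above background in 11 channels and had a mean of -0.02 (SE 0.20). SLC7A5 was at 0.05 (SE 0.17) and SLC3A2 at 0.16 (SE 0.19). SLC6A6 was at -0.26 (SE 0.14), SLC30A1 at 0.22 (SE 0.12), SLC39A14 at -0.28 (SE 0.16), SLC4A4 at -0.51 (SE 0.25) and SLC12A2, the sodium-potassium-chloride cotransporter, at -0.03 (SE 0.13). For SLC39A6 the mean of 0.16 (SE 0.15) rests on 5 arrays, since an outlier spot of CMT-U27 was left out. The glucose carriers SLC2A8 (-0.04, SE 0.11) and SLC2A9 (-0.14, SE 0.12) were measured in all 12 channels. SLC2A4 (0.75, SE 0.48), SLC8A1 (0.56, SE 0.44) and SLC6A14 (0.57, SE 0.44) were well above background in at most 1 channel. SLC5A5, which takes up iodide, had a mean of -0.12 (SE 0.19) and SLC22A5, which takes up carnitine, one of -0.03 (SE 0.27).

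Leaving out P114 changed the calls. Without its arrays 7 carriers were past the thresholds as higher (background 3.63%) and 0 as lower (background 0.987%). They were SLC4A2 at 1.17, SLC9A3R1 at 1.01, SLC22A4 at 1.15, SLC2A4 at 1.52, SLC16A7 at 1.19, SLC8A1 at 1.096 and SLC7A2 at 1.06, of which SLC4A2 and SLC9A3R1 were measured in all 12 channels. An adjusted p under 0.05 was then met by 22 carriers (background 16.6%), among them SLC38A2 at -0.72, SLC39A10 at -0.69, SLC39A4 at 0.60 and SLC1A5 at 0.49. That fit holds 2 lines, and without CMT-U27 or without CMT-U309 there were 0 calls in each direction. The second SLC38A2 probe was above 0 on every array of CMT-U27 and CMT-U309, so no direction is given for that gene. The second SLC1A5 probe had both signs in CMT-U27. Dye mattered as well. With the arrays of co-culture RNA in Cy3 alone 13 carriers were higher (background 5.5%) and 6 lower (background 4.8%), while 5.69% of all genes had an adjusted p under 0.05, and with those in Cy5 alone 0 were higher (background 0.396%) and 1 lower, SLC4A4 at -1.01 (background 0.533%).

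Agreement of the dye swaps was read for the carriers themselves, across genes, which are not independent replicates and share both RNAs. Over the 123 tested genes the ratios of the 2 arrays correlated at r = -0.41 for P114, 0.33 for CMT-U27 and 0.12 for CMT-U309. The same sign was seen for 38.2%, 60.2% and 52.9% of them. Over all tested genes r was -0.36, 0.29 and -0.03 and the same sign was seen for 40.5%, 64.7% and 53.6%. For the 58 carriers in all 12 channels r was -0.02, 0.52 and 0.28, against -0.13, 0.52 and 0.29 for all genes in 12 channels. SLC9A3R1 in P114 is an example, with ratios of -2.25 and 0.29, while its ratios in CMT-U27 were 0.92 and 1.73.

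**Figure D4:**
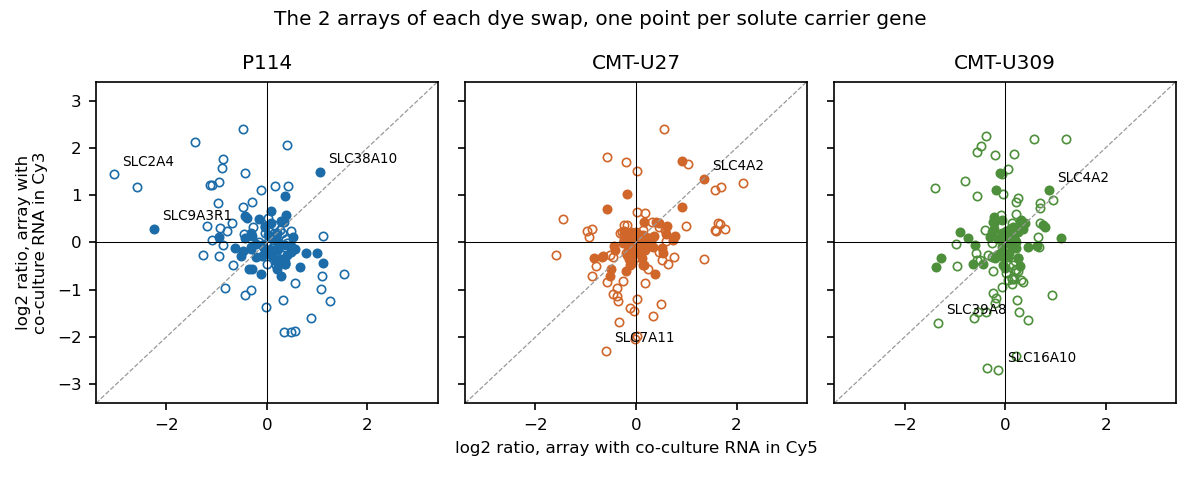
Log2 co-culture to monoculture ratio of each tested solute carrier gene with the co-culture labelled in Cy5 (horizontal axis) and in Cy3 (vertical axis), 1 panel per line. Filled points are genes well above background in all 12 channels, and repeated measurements would lie on the dashed diagonal. Points follow the diagonal best in CMT-U27 (r = 0.33) and run across it in P114 (r = -0.41).

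Genes that act with the carriers were read from lists, and no gene of any list passed the thresholds. The amino acid response, ATF4 and its targets, had 11 genes with a median of -0.03, from CTH at -0.30 to CHAC1 at 0.35, and ATF4 itself was at 0.04 (SE 0.12). Amino acid sensing by mTORC1 had 10 genes with a median of -0.02. GLUL, which makes glutamine from glutamate, was at 0.36 (SE 0.18) and higher on all 6 arrays. The sodium pump had 9 genes with a median of 0.07, of which FXYD1, a small regulatory subunit well above background in the 4 channels of CMT-U309 alone, was at 0.86 (SE 0.23) and higher on all 6 arrays, and the regulators of ion carriers 8 with a median of -0.06.

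The carbonic anhydrases, which make the bicarbonate that SLC4 proteins carry, had 8 genes with a median of 0.23. CA9 was at 0.32 (SE 0.11) and higher on all 6 arrays, CA14 at 0.30 (SE 0.11), CA2 at 0.79 (SE 0.24) and CA12 at -0.65 (SE 0.25). CA9 and CA14 were measured in all 12 channels and CA2 in 4. CA9 also separated the lines in monoculture, at a log2 level of 14.1 for P114, 8.82 for CMT-U27 and 7.56 for CMT-U309. Among the zinc handling genes the metallothionein MT1E was at 0.70 (SE 0.11), with 0.62, 0.59 and 0.89 in the 3 lines, and the zinc-sensing factor MTF1 at 0.32 (SE 0.14). Both were higher on all 6 arrays and each had an adjusted p of 0.499, and the third gene of that list, MT4, was at 0.09 (SE 0.13).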

How the data were processed

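The authors deposited the scanner output of Agilent Feature Extraction (10.10.1.1 in the file headers, 10.7.3.1 in the submitters' processing notes) per array. Per the file headers, the deposited processed intensity of each dye had been background-subtracted and dye-normalised by that software, and raw intensity and quality flags are given beside it. They also deposited a table of log10 ratios, whose values equal the scanner ratios once these are turned to co-culture over monoculture. Probe positions are those of canFam2 in the files; whether a probe lies in an exon was not analysed here. No probe of a carrier was saturated.

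Control spots and outlier flags were left out, up to 5 spots per probe were averaged, channel medians were equalised, and a probe had to exceed an intensity of 10 somewhere, as 40865 did. limma 3.58.1 (lmFit, trended eBayes; R 4.3.3) compared the mean log2 ratio of 3 lines with 0, the 2 arrays of a dye swap being averaged to 1 replicate, with Benjamini-Hochberg adjustment over all tested probes. Levels are log2 processed signals after loess within arrays and Aquantile between arrays. A level below background was set to the dimmest signal that passed on that array for bounds, which are given where no channel of the dimmer side passed. Where 1 of 2 channels passed, the fold was taken from both levels as measured and is less certain. The number of arrays limits the precision, and what separates the samples of a line is technical.

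Named genes were a list of carriers by role, carriers past the thresholds, the gene of widest monoculture range in each family (undetected channels included), and genes turned one way on all 6 arrays in all 12 channels. The members and all lists were chosen with earlier results of these data known. SLC1A4 and SLC22A25 of the list were not found by name, and a few members and list genes are not reported by name here. Of the 132 symbols 129 are in the RefSeq gene table used here. Scripts were tested on simulated data. Python 3.11.15, pandas 2.3.3 and matplotlib 3.10.9 were used. Alternatives were the background correction, dye normalisation, scaling, intensity filters, variance model, dye terms, probe choice, and leaving out a line or a dye orientation.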

Additional observations from a re-analysis of the deposited data

Results flagged for a closer look

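The cut used for an array that stood apart would pick about 1 gene in 20 by chance if its 6 values were independent and normal. The arrays of a line share their RNAs, so that rate may not hold here. Among the 49 carriers whose ratios were followed one by one, single arrays stood apart from the other 5 for 8. They were SLC16A10 at -2.70 and SLC12A8 at -1.59 on the CMT-U309 array with co-culture RNA in Cy3, SLC7A11 at -2.29 on the CMT-U27 array with it in Cy3, and SLC22A5 at -1.44 on the CMT-U27 array with it in Cy5. The other 4 were from P114 with the co-culture labelled in Cy5, namely SLC2A4 at -3.04, SLC5A5 at 1.12, SLC39A5 at -0.388 and SLC1A1 at 0.266.

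The other carriers were not scanned in this way. In 9 of the 49 both arrays of a line lay on one side of 0 and both of another line on the other side, and the difference between lines was not tested. The mean log2 ratios in P114, CMT-U27 and CMT-U309 were -0.405, 0.414 and 0.563 for SLC1A5, 0.476, -0.257 and -0.174 for SLC4A7, 0.0901, -0.292 and 0.116 for SLC12A2, and -0.695, 0.331 and -1.01 for SLC22A15. These are values of the brightest probe, and the second SLC1A5 probe had ratios of both signs in CMT-U27. For SLC39A6 they were -0.229, 0.465 and 0.258, with 1 array in CMT-U27. In the others 1 line had arrays of both signs, and the opposed means were 0.627 in P114 and -0.92 in CMT-U309 for SLC6A12, -0.624 in P114 and 0.42 in CMT-U27 for SLC7A4, -0.131 in P114 and 0.123 in CMT-U27 for SLC16A11, and 0.252 in P114 and -0.743 in CMT-U27 for SLC22A24.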

How the results depend on the processing

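No carrier passed the thresholds with normexp plus loess, without scaling, with the deposited log10 ratios, either intensity filter, no variance trend, outlier spots kept, 6 arrays without a dye term, the methods' t-test or the mean over probes. Loess on the processed signals called 1 as higher, SLC22A4 at 1.04. Leaving out a line gave 0 to 7 higher, with 7 without P114. Leaving out a dye orientation, chosen after seeing the data, gave 0 to 13 higher and 1 to 6 lower. The arrays are numbered by dye, so a number pairs arrays of the same dye, and with this replicate block in the fit 0 were higher and 0 lower and the median log2 ratio was -0.04; the block changed no call. The median was -0.03, and -0.014 with normexp and loess, -0.053 with the deposited ratios and -0.058 without scaling. It ran from -0.068 to -0.0038 without one line and from -0.010 to 0.042 without one dye orientation. The cause was not tested.

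Carriers apart in level between CMT-U27 and P114, CMT-U309 and P114, and CMT-U309 and CMT-U27 numbered 33, 17 and 40, and 13, 7 and 14 with normexp. Without one dye orientation the middle pair held 20 to 29. Under median scaling, the co-culture channels, the mean over probes or no detection rule the counts stayed within 1.5 times. Differences of single genes also shrank with normexp. For SLC6A12 the log2 difference of CMT-U27 from P114 went from 6.71 to 3.82. For SLC4A4 that of CMT-U309 from CMT-U27 went from 4.105 to 1.405.

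Of the 49 ratios followed, 21 changed sign somewhere, 3 of them with p under 0.05 (SLC6A9, SLC7A14 and SLC39A5). With normexp and loess together these were SLC12A7 (0.023), SLC16A11 (-0.016), SLC3A2 (-0.078), SLC4A7 (-0.043), SLC5A3 (0.0057), SLC6A14 (-0.0020), SLC6A9 (0.017), SLC7A4 (0.13) and SLC7A5 (-0.042). Loess turned SLC12A7 (0.053), SLC22A5 (0.14) and SLC7A4 (0.046), the deposited ratios SLC12A7 (0.052), SLC4A7 (-0.0079) and SLC7A4 (0.075), and no scaling SLC4A7 (-0.0079). The mean over probes turned SLC22A24 (0.28) and SLC39A5 (-0.25). Over the fits that leave out a line or a dye orientation, the sign changed for SLC12A2 (-0.10 to 0.10), SLC12A7 (-0.26 to 0.10), SLC16A11 (-0.063 to 0.20), SLC22A24 (-0.41 to 0.092), SLC22A5 (-0.52 to 0.47), SLC2A4 (-0.26 to 1.76), SLC2A8 (-0.12 to 0.033), SLC2A9 (-0.47 to 0.19), SLC30A4 (-0.30 to 0.25), SLC3A2 (-0.43 to 0.75), SLC4A7 (-0.22 to 0.15), SLC5A3 (-0.56 to 0.092), SLC5A5 (-0.44 to 0.20), SLC6A12 (-0.47 to 0.30), SLC6A9 (-1.22 to 0.14), SLC7A14 (-0.18 to 1.75), SLC7A4 (-0.31 to 0.21), SLC7A5 (-0.29 to 0.40) and SLC9A3R1 (-0.48 to 1.16). Signal over background limits the precision of the dim carriers.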
